A study of Homo sapiens with 24 samples.

Results

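The share of mRNA that still carried 4-thiouridine label was followed through a uridine chase in HEK293 cells that overexpress ZC3H7B with a Flag/HA tag (ZC3H7B-OE). HEK293 is a human embryonic kidney cell line. All 12 libraries labelled as this line were used, of 24 in the series, and the other 12 come from a control line whose genotype is given as overexpression of Flag/HA alone. Cells of both lines received 100 µM 4-thiouridine (s4U) together with 1 µg/mL doxycycline for 24 h, with fresh medium at intervals. They were then washed and given 10 mM uridine, and RNA was taken after 0, 2, 4 or 6 h of chase, with 3 libraries at each of the 4 times. Doxycycline is a common inducer of transgenes. No library without it was analysed here, and whether a line is 1 clone is not given in the sources used here. Whether the 3 libraries of a time are separate cultures is not in the labels, so every p-value here reflects the spread among these libraries, which may be technical. For each gene the deposited tables give all reads and the reads with T-to-C conversions. The labelled share of a gene is the second as a percent of the first, and the difference between them is its unlabelled reads.

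In this assay (SLAM-seq) cells build s4U into new transcripts, and a chemical step makes each s4U read as C where the genome has T. After a pulse long enough to label most mRNA, a chase with unmodified uridine leaves old transcripts labelled and new ones unlabelled, so the labelled share falls as old mRNA decays and new mRNA replaces it. mRNAs of transcription factors and other regulators of the early response are in general short-lived, and those of ribosomal proteins and metabolic enzymes long-lived. Short-lived mRNAs often carry AU-rich elements in the 3′ UTR, which recruit decay factors such as ZFP36 proteins and the CCR4-NOT complex that shortens the poly(A) tail. ZC3H7B is an RNA-binding protein with CCCH zinc fingers.

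The 12 libraries held 1661392 to 3568508 gene-assigned reads, with reads on 12005 to 13182 genes. The 10 most abundant genes took 3.56% to 7.61% of a library. Within a time, a library's correlation with the others was 0.964 to 0.985, and no pair of libraries agreed within sampling noise. Of 6 marker genes of HEK293 checked, LIN28B, IGF2BP1, IGF2BP3 and CKB had 1162 to 34093 reads over the 12 libraries, but PAX2 had 10 and HMGA2 1. Of the markers of other cell types, COL1A2, DCN and LUM of fibroblasts, PTPRC and CD3E of leukocytes and CDH1 of epithelia were at 0 in all 12. Others had reads over the 12 libraries: EPCAM 545, KRT8 327 and KRT18 289 of the epithelial list, CD74 470 of the leukocyte list and COL1A1 39 of the fibroblast list. The summed level of the 5 leukocyte markers was 6.6 to 10.7 CPM (counts scaled to library size) at 0 h and 22.9 to 26.1 CPM at 6 h, that of the 5 epithelial ones 50.7 to 71.8 and 22.0 to 34.9 CPM, and that of the 6 HEK293 ones 2572 to 2769 and 1699 to 1881 CPM. The part of these in the results was not tested.

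The overexpressed gene was checked first. On a common scale for all 24 libraries, ZC3H7B mRNA in the ZC3H7B-OE line was at 449, 458 and 401 CPM at 0 h, 289, 352 and 321 after 2 h, 291, 276 and 298 after 4 h, and 267, 259 and 280 at 6 h. In the control line it was at 350, 360 and 187 CPM at 0 h, 369, 373 and 275 after 2 h, 201, 220 and 249 after 4 h, and 205, 220 and 210 at 6 h. The ZC3H7B-OE libraries lay above the control libraries at 0, 4 and 6 h, and the lines overlapped at 2 h. Which part of the gene the counts cover, and so whether they include the transgene, is not given in the sources used here.

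The labelled share of ZC3H7B itself was 62.2%, 63.0% and 66.1% at 0 h, 61.3%, 61.9% and 55.4% after 2 h, 38.4%, 33.7% and 32.9% after 4 h, and 20.8%, 23.1% and 20.7% at 6 h in the ZC3H7B-OE line. In the control line it was 76.1%, 77.6% and 90.9% at 0 h and still 46.2%, 44.8% and 44.7% at 6 h. The lines did not overlap at either time. The log2 odds of label at 6 h were lower by 1.59 in ZC3H7B-OE (edgeR quasi-likelihood test, adjusted p = 2.65e-09). A difference between the lines in the course from 0 to 6 h was not called (log2 odds ratio -0.41 ± 0.26 (SE), edgeR adjusted p = 0.482). Labelled ZC3H7B reads in the ZC3H7B-OE line went from a mean of 284 CPM at 0 h to 59.0 at 6 h, while unlabelled reads went from 162 to 215 CPM. ZC3H7A, the paralog, was labelled at 83.7%, 88.2% and 97.4% at 0 h and 15.3%, 12.4% and 13.5% at 6 h, with its reads at 22.6 CPM at 0 h and 64.5 CPM at 6 h.

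Label was lost slowly over the first 2 h and mostly between 2 and 4 h. Of all reads in a library, 75.1%, 74.9% and 74.3% were labelled at 0 h, and after 2 h 72.4%, 72.2% and 70.8%. At 4 h the values were 46.1%, 45.4% and 45.1%, and at 6 h 29%, 29.7% and 30.3%. The groups did not overlap at any step. The mean fell by 2.97 percentage points from 0 to 2 h, by 26.3 from 2 to 4 h and by 15.9 from 4 to 6 h. Each difference gave p = 0.1 in a two-sided exact permutation test (n = 3 against 3), which is the smallest p that this design allows, and 0.1 after Benjamini-Hochberg adjustment over the 4 tests. The 95% binomial intervals of a library's share reached at most 0.07 points to either side, and they cover counting error only. Unlabelled reads made up 25.2% ± 0.4195 (SD, n = 3) of the reads at the end of the pulse and 70.4% ± 0.6604 (SD, n = 3) after 6 h. In the control line the labelled share was 76.7% ± 1.67 at 0 h, 75.7% ± 1.82 after 2 h, 47.7% ± 0.7596 after 4 h and 29.9% ± 0.7292 at 6 h (SD, n = 3).

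**Figure D1:**
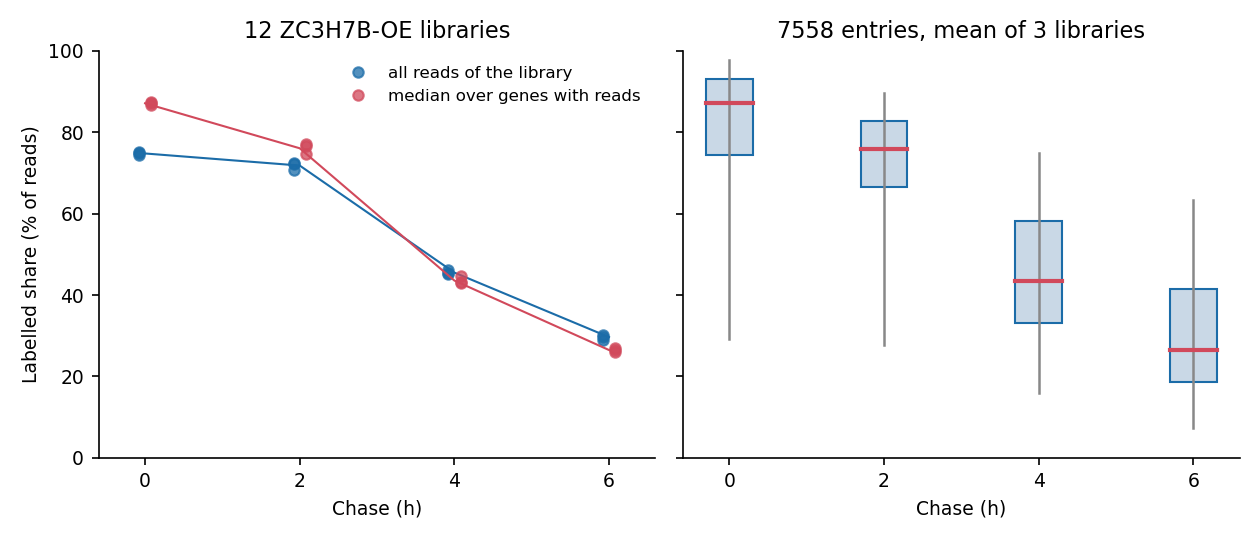
Labelled share over the chase (hours, x axis) in the ZC3H7B-OE libraries. On the left, points are single libraries for the share of all reads and for the median gene, in percent. On the right, boxes span the 25th to 75th percentile of 7558 genes, lines the 5th to 95th, with the median marked. The library share fell from 74.8% to 29.7% and the median gene from 87.1% to 26.5%.

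The typical gene lost more label than the library total. Genes with a mean of at least 20 reads per library were analysed, 7558 of 19692 entries. Of these entries, 237 name several genes. The median gene share in a library averaged 87.1% at 0 h, 76.0% after 2 h, 43.6% after 4 h and 26.5% at 6 h. The spread between genes was wide. At 0 h the share was 29.3% at the 5th percentile and 97.8% at the 95th, and at 6 h these were 7.37% and 63.4%. With each gene weighted by its level at 0 h, the 7523 genes that could be used held 51.2% labelled reads at 4 h and 38.4% at 6 h. The observed values over the same genes were 45.6% and 29.7%. The observed share was lower than the weighted one at both times.

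Gene by gene, the share fell between 0 and 6 h for 6563 of the 7558 genes (86.8% called lower) and rose for 8 (0.106%). By step, 2795 genes were lower at 2 h than at 0 h (37%) and 133 were higher (1.76%). From 2 to 4 h, 5692 were lower (75.3%) and 8 higher (0.106%). From 4 to 6 h, 4808 were lower (63.6%) and 7 higher (0.0926%). All calls are at an adjusted p under 0.05 in edgeR's quasi-likelihood test on labelled against unlabelled counts, with Benjamini-Hochberg adjustment over all 7558 genes. The share of 2352 genes fell at all 3 steps. Another 1880 genes were not called in the first step and fell in both later ones, and 1251 were called at none. The median change in the log2 odds of label (the log2 ratio of labelled to unlabelled reads) was -0.77 from 0 to 2 h, -1.94 from 2 to 4 h and -1.05 from 4 to 6 h.

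Since nearly every gene fell, genes were also compared with the whole library. A relative change is the change of the gene's log2 odds minus that of the library's labelled and unlabelled totals. From 0 to 6 h, 3921 genes fell faster than the library (51.9%) and 1687 fell more slowly (22.3%), with a median relative change of -1.23. From 0 to 2 h, 2367 genes already fell faster (31.3%) and 358 more slowly (4.74%). Labelled CPM declined over the chase for 5494 genes (72.7%) and increased for 183 (2.42%). For the declining genes the apparent half-life of the labelled reads, relative to all mRNA of the library, was 3.77 h at the median, with 2.17 h and 6.97 h at the 5th and 95th percentiles. With chase hours from 2 h only, 6118 of 7664 genes declined. Their median half-life was shorter, at 2.92 h, with 1.62 h and 6.04 h at these percentiles. Half-lives given below are from 0 to 6 h unless stated. A half-life on this scale is not an absolute one, because all mRNA is the reference. In these bulk libraries, fewer cells and less RNA per cell cannot be told apart.

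The immediate early genes are the first to be transcribed after a stimulus. They fell most relative to the library among the 30 lists examined, with a median relative change of -3.78. The BMP and Notch targets were next, at -3.72. Of 44 immediate early genes listed, 36 were tested. Relative to the library 34 of the 36 fell faster and none more slowly, against 51.9% and 22.3% of all genes. Their median share went from 90.9% at 0 h to 65.3%, 23.9% and 10.0% at 2, 4 and 6 h. At 6 h the members ranged from 1.97% to 24.7%. The loss was early for most: the share of 33 of the 36 was lower already at 2 h, against 37% of all genes. The median half-life of labelled reads was 2.78 h in the 31 members with a called decline. It was shorter in the BMP and Notch targets, at 2.42 h, and in the histone list, at 2.65 h, with 9 such members each.

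Of the 36 tested genes, 7 (19.4%) held the AU-rich nonamer TTATTTATT in the annotated 3′ UTR, sense strand only, with overlapping copies counted. The same letters were in 9.58% of the 7142 tested genes with a matched 3′ UTR and in 7.53% of the UTRs of 19053 protein-coding genes. Among the 30 lists the percent was highest in the p53 targets, at 22.2%. It was 14.3% in the glycolysis list and 0 in the BMP and Notch targets. The first site of each of the 7 members is shown from GENCODE 29 with the nonamer in capitals, because this element is a textbook mark of the class, and these genes were picked for holding it. A match describes the sequence and is no proof of a functional site, and a UTR without it says only that these letters are not there.
DUSP1: gggctggtccTTATTTATTtaacttcaccc
IER5: gtgtcttcctTTATTTATTtatttatttaa
ZFP36L1: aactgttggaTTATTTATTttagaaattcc
ZFP36L2: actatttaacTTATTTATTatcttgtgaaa
FOSL2: atttattttaTTATTTATTttaaatgttta
SRF: atggcaccacTTATTTATTgttgccttttc
PIM1: tgttatgtatTTATTTATTtatttatttgg
The UTRs of IER5 and PIM1 held 3 copies each, that of DUSP1 2, and the others 1. DUSP1 is a phosphatase that inactivates MAP kinases. Its copies lie in a UTR of 672 bases. SRF, a transcription factor of the serum response, has the site at base 44 of its UTR. ZFP36L1 and ZFP36L2 are themselves proteins that bind such elements.

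JUN, a subunit of the AP-1 transcription factor, was labelled at 89.6%, 90.8% and 90.3% at 0 h, 59.1%, 58% and 53% after 2 h, 12.5%, 18.4% and 14.1% after 4 h and 6.46%, 6.39% and 4.77% at 6 h. The groups of successive times did not overlap. Its relative change was -4.39 ± 0.15 (SE, edgeR adjusted p = 2.68e-54), and its labelled reads had a half-life of 1.77 h. The nonamer was not found in its UTR of 1287 bases. Unlabelled JUN reads went from 51.6 CPM at 0 h to 162, 471 and 778 CPM. All JUN reads rose by 0.65 on the log2 scale over the chase, while labelled reads went from 476 to 48.2 CPM.

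MCL1, an anti-apoptotic BCL2 family protein, also lost label, but its total rose. The share was 97.2%, 97.1% and 93.2% at 0 h and 18.1%, 17.5% and 19.8% at 6 h, while all reads went from 300 to 1520 CPM. Its unlabelled reads rose from 12.1 to 1239 CPM, and its labelled reads were 288 CPM at 0 h and 281 CPM at 6 h. TOB2, an adaptor that brings CCR4-NOT to mRNA, went from a mean share of 90.5% to 9.37%, with unlabelled reads rising from 44.1 to 660 CPM. DUSP1 and ZFP36L2 were chosen after their values were seen. DUSP1 had only 39 reads per library on average, and its share went from 100%, 88.0% and 81.5% at 0 h to 1.35%, 4.04% and 8.06% at 6 h. ZFP36L2 was at 91.2%, 94.5% and 93.1% at 0 h and 9.82%, 11.1% and 12.5% at 6 h, a relative change of -3.94 ± 0.34 (SE).

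Targets of BMP and Notch signalling also ended low in share. Of 9 tested, 7 fell faster than the library and none more slowly, against 51.9% and 22.3% of all genes. Their median share was 85.6% at 0 h and 11.9% at 6 h, with a median relative change of -3.72. ID3, an inhibitor of basic helix-loop-helix factors, went from 87.9%, 83.9% and 80.1% to 2.83%, 5.26% and 11.9%. Its reads fell from 98.1 to 40.1 CPM, while unlabelled reads rose from 15.8 to 37.2 CPM. SMAD7, an inhibitor of TGF-β signalling, went from 87.5%, 95.5% and 87.5% to 5.52%, 3.92% and 3.59%. SOX4, a transcription factor, reached 11.6%, 13.0% and 11.0% at 6 h. No member of this group held the nonamer.

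Zinc finger (ZNF) transcription factors, the largest list, followed. Of 490 listed 252 were tested. Of these, 198 fell faster than the library and 12 more slowly, against 51.9% and 22.3% of all genes, with a median relative change of -3.19. Their median share was 94.2% at 0 h, above the 87.2% of all genes tested, and 19.3% at 6 h, below the 26.4% of all genes. The median half-life of labelled reads was 2.87 h in the 205 with a called decline. ZNF468 was labelled at 94.6%, 94.7% and 95.7% at 0 h, 72.8%, 72.7% and 68.9% after 2 h, 23.2%, 24.0% and 21.3% after 4 h and 11.3%, 11.8% and 11.3% at 6 h. Its unlabelled reads went from 12.5 to 527 CPM. Labelled reads of ZNF703 fell from 1436 to 192 CPM while its total was 1626 CPM at 0 h and 1882 CPM at 6 h.

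Genes of the CCR4-NOT deadenylation machinery also fell fast in share, and the reads of most grew in number. This list shares at least TOB2 with the immediate early list, so the lists are not separate sets. Of 15 tested, 11 fell faster than the library and none more slowly, against 51.9% and 22.3% of all genes. Unlabelled reads of all 15 rose, against 5399 of 7558 genes overall (71.4%), and all reads of 10 rose and of none fell, against 3133 of 7558 higher (41.5%) and 2740 lower (36.3%). The median share went from 89.2% to 16.7%. CNOT6, a catalytic deadenylase subunit, was at 97.3%, 97.1% and 92.1% at 0 h and 26.8%, 25.8% and 25.1% at 6 h, as its reads rose from 58.4 to 374 CPM. Its labelled reads went up too, from 55.8 CPM at 0 h to 97.0 CPM at 6 h. The apparent half-life of labelled reads was not short in this list, at a median of 4.07 h in the 8 of 15 with a called decline, against 3.77 h over all genes. BTG1, a protein that binds the complex, went from 91.2%, 95.5% and 94.7% to 11.2%, 11.6% and 13.5%.

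Of 29 genes of the ATF4 stress response 19 fell faster and 7 more slowly, and of 18 p53 targets 12 fell faster and 4 more slowly, where 51.9% of all genes fell faster and 22.3% more slowly. The members that fell more slowly were near the latter share in both lists. GADD45B, a stress sensor among the p53 targets, went from 77.0%, 81.1% and 83.4% at 0 h to 24.8%, 30% and 29.6% at 2 h and 2.55%, 2.48% and 2.33% at 6 h. Its unlabelled reads rose from 14.7 to 554 CPM. SESN2, a regulator of mTORC1, lost reads as it lost label: the share went from 93.5%, 95.6% and 92.8% to 17.8%, 19.2% and 19.6%, and all reads from 812 to 389 CPM. CDKN1A, the p21 cell cycle inhibitor, went from a mean of 86.4% to 14.7%, with all reads at 85.7 and 210 CPM.

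DDIT4, an mTORC1 inhibitor chosen after its values were seen, also lost most of its label in the first 2 h. It was at 94.1%, 95.9% and 91.6% at 0 h and at 38.9%, 38.4% and 38.9% at 2 h, where the median gene was at 76.0%. Labelled reads fell from 229 to 97.0 CPM in those 2 h (log2 change -1.24 ± 0.15 (SE), edgeR adjusted p = 1.6e-11), and the half-life over the chase was 1.14 h. Its unlabelled reads reached 154 CPM at 2 h and stood at 152 CPM at 6 h. An antisense gene, DDIT4-AS1, overlaps 41.2% of its exon bases in GENCODE 29. Whether the reads were counted by strand is not given in the sources used here, so reads of such pairs may not be told apart. SHMT2, a serine metabolism enzyme of the ATF4 list, was at 69.9% at 0 h and 65.7% at 6 h as means.

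Cell cycle and protein folding genes held members of both kinds. CDC25A, the phosphatase that opens S phase, was at 91.5%, 90.6% and 90.5% at 0 h. By 6 h it had come to 12.7%, 11.8% and 11.8%, and its unlabelled reads rose from 24.3 to 887 CPM. CDT1, a licensing factor of replication, went from a mean of 88.7% to 15.2%. TK1, thymidine kinase, was at 79.4%, 79.6% and 78.6% at 0 h and still 74.0%, 69.8% and 79.3% at 6 h. Of 23 cytosolic chaperone genes 14 fell faster than the library and 4 more slowly, near the 51.9% and 22.3% of all genes. DNAJB1, the stress-induced partner of HSP70, went from 94.4%, 97.7% and 94.6% to 6.35%, 8.93% and 7.92%, as unlabelled reads rose from 9.68 to 445 CPM. HSPA1B, an inducible HSP70, reached 9.04% and rose from 61.2 to 641 CPM in all reads, but it is nearly identical to HSPA1A and its counts are uncertain.

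**Figure D2:**
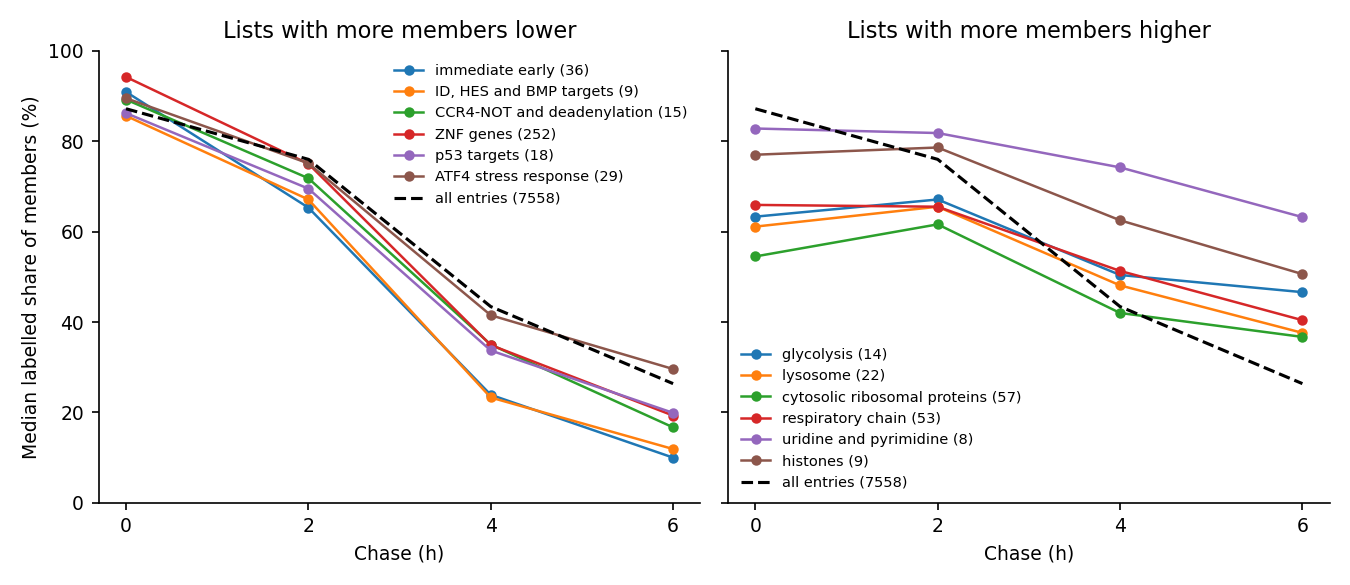
Median labelled share (percent, y axis) by chase time (hours, x axis) in 12 gene lists. The left panel shows 6 lists with more members falling faster than the library, the right panel 6 lists with more members falling more slowly, and the dashed line all 7558 genes. Immediate early genes end lowest, at 10.0%, and the uridine and pyrimidine list highest, at 63.2%.

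Most of the cytosolic ribosomal protein, respiratory chain, lysosomal and glycolysis genes tested fell more slowly than the library. Their own share fell from 0 to 6 h in 35 of 57 cytosolic ribosomal protein, 31 of 53 respiratory chain, 16 of 22 lysosomal and 9 of 14 glycolysis genes, and rose in none, where 86.8% of all genes were called lower. Of 57 cytosolic ribosomal protein genes tested, 45 fell more slowly than the library and 5 faster, with medians of 54.5% at 0 h, 61.6% after 2 h, 42.0% after 4 h and 36.7% at 6 h. Of 53 respiratory chain genes, 35 fell more slowly and 7 faster, and of 22 lysosomal genes 15 and 4. Of 14 glycolysis genes, 9 fell more slowly and 2 faster. Of all genes 22.3% fell more slowly than the library and 51.9% faster. Each of these lists began below the 87.2% of all genes, the glycolysis list at 63.3%, the lysosomal one at 61.1% and the respiratory one at 65.9%. Their totals declined: all reads fell for 38 of the 57 ribosomal protein genes and rose for 5, and fell for 42 of the 53 respiratory chain genes and rose for 5, where 36.3% of all genes fell and 41.5% rose. Unlabelled reads fell for 21 and rose for 14 of the ribosomal protein genes, where 10.9% of all genes were called lower. Half-lives of labelled reads were taken from members with a called decline. Their median was 4.6 h in the ribosomal protein list and 4.06 h in the respiratory one. It was 3.84 h in the lysosomal list and 4.96 h in the glycolysis list, against 3.77 h over all genes. From 2 to 6 h only, these medians were 2.84, 3.08, 2.78 and 3.87 h, against 2.92 h.

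PKM, the pyruvate kinase of glycolysis, was labelled at 52.0%, 50.4% and 51.1% at 0 h, 57.5%, 55.4% and 57.5% after 2 h, 51.6%, 47.0% and 50.6% after 4 h and 50.9%, 49.7% and 49.7% at 6 h. The 0 h and 6 h libraries overlapped in range, while the 2 h libraries lay above both. Its own change from 0 to 6 h was -0.06 in log2 odds (edgeR adjusted p = 0.39), and relative to the library it was 2.75 ± 0.06 (SE). Labelled and unlabelled PKM reads declined together, from 2826 to 1333 CPM and from 2692 to 1329 CPM. GAPDH, an earlier enzyme of the pathway, was at 41.4%, 38.8% and 37.3% at 0 h and 39.1%, 39.7% and 35.6% at 6 h, but GAPDH has many processed pseudogenes and its counts are uncertain.

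RPL29, a protein of the large ribosomal subunit, was at 47.6%, 45.6% and 48.3% at 0 h, 53.8%, 52.4% and 53.5% after 2 h, 46.6%, 44.2% and 44.1% after 4 h and 42.3%, 43.8% and 43.7% at 6 h. All RPL29 reads went from 6107 to 3162 CPM. RPL41, of the same subunit, was at a mean of 87.9% at 0 h and 84.4% at 6 h. How reads that fit several copies of a ribosomal protein gene were counted is not given in the sources used here. In the respiratory chain, NDUFA13 of complex I was at 22.5% at 0 h and 24.7% at 6 h, and COX8A of complex IV at 59.8% and 56.8%. In the lysosome, PSAP, the precursor of saposins, was at 48.1% and 43.3%, and the protease CTSB at 55.5% and 49.1%.

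Uridine salvage and pyrimidine genes stood highest at 6 h, with a median of 63.2% over 8 tested of 23. Of these, 6 fell more slowly than the library and 2 faster, against 22.3% and 51.9% of all genes. The apparent half-life of their labelled reads was 3.53 h at the median, against 3.77 h over all genes. UCK1 and UCK2, kinases that phosphorylate uridine, moved apart. UCK1 was at 81.0%, 82.5% and 84.1% at 0 h and 66.9%, 63.9% and 70.5% at 6 h, a relative change of 1.59 ± 0.16 (SE). UCK2 was at 97.8%, 96.8% and 88.9% and then 15.4%, 9.89% and 16.0%, a relative change of -3.87 ± 0.60 (SE). Of 9 histone genes tested, all reads of 9 fell, with a median log2 change of -1.28, where 36.3% of all genes fell. In share 3 of the 9 fell more slowly than the library and none faster, against 22.3% and 51.9% of all genes. HIST3H2A was at 63.5%, 68.9% and 70.9% at 0 h and 58.7%, 55.3% and 53.1% at 6 h. Most histone mRNAs lack a poly(A) tail and their genes are near copies, so that these counts are uncertain in libraries selected for poly(A).

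Other lists are read against the 51.9% of all genes that fell faster than the library and the 22.3% that fell more slowly. Relative to it, 24 of 35 SR and hnRNP splicing factors fell faster and 8 more slowly, and 17 of 26 ribosome biogenesis genes fell faster and 4 more slowly. HNRNPF went from a mean of 95.1% to 21.0%, and HNRNPC, of the same family by name, from 78.0% to 56.8%. Of 56 mitochondrial ribosomal protein genes 20 fell faster and 17 more slowly, unlike the cytosolic ones by count. A test of the difference between the lists was not made. Of 29 translation factors 14 fell faster and 8 more slowly, and of 15 tRNA synthetases 3 and 4. Of 11 citric acid cycle genes 3 fell faster and 4 more slowly, and of 19 cholesterol and fatty acid genes 9 and 8. Of 15 endoplasmic reticulum chaperones 7 fell faster and 6 more slowly, the former near the 51.9% of all genes. Without entries that overlap the other strand, 6 of 7 of these chaperones fell faster and 1 more slowly. XBP1, the transcription factor of the unfolded protein response, went from 95.6% to 18.4%, and P4HB, a disulfide isomerase, from 47.7% to 42.4%.

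At the end of the pulse 195 of the 7558 genes had no unlabelled read in any of the 3 libraries, and the 12 genes named for the largest relative fall were all among them. WASL, an activator of actin branching, had 127 reads at 0 h, all of them labelled (exact 95% lower limit 97.6% of reads over the 3 libraries, for counting error only). It was labelled at 71.0%, 76.0% and 75.5% after 2 h, 42.2%, 32.6% and 36.7% after 4 h and 21.1%, 18.5% and 19.5% at 6 h. Against a floor of 3 counts over the 0 h group (0.551 CPM), its unlabelled reads were at least 471-fold higher at 6 h. ZBTB6, a zinc finger factor, was at least 414-fold higher, NAA30, an acetyltransferase subunit, at least 370-fold, RSF1, a chromatin remodeller, at least 327-fold and BCL10, a signalling adaptor of NF-κB, at least 279-fold. ENPP4 was at least 270-fold higher, DCAF4L1 237-fold, ZNF92 204-fold, PHLDA1 143-fold, MCM9 94.6-fold and KIAA1244 77.1-fold. CYR61, a secreted immediate early protein, was at 100% in the 3 libraries at 0 h and 4.92%, 4.18% and 4.29% at 6 h, with unlabelled reads at least 140-fold higher.

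At the other end, 219 genes were at or below 10% labelled at 0 h, with a median of 0.4563%, and at 6 h this median was 0.1145%. The most abundant entry of all, AP000350.4, was labelled at no more than 0.0682% in any of the 12 libraries and went from 12311 to 5011 unlabelled CPM. It overlaps MIF on the other strand over 46.5% of its exon bases. Among the entries under 10% at 0 h that could be matched to GENCODE 29, 173 of 200 (86.5%) overlapped an exon of a gene on the other strand. Among all matched entries tested the value was 41.8%, and among those above 95% labelled it was 31.9%. The part of such overlap in the low shares was not tested. Without the overlapping entries, 4213 genes had median shares of 88.8%, 77.0%, 43.6% and 26.5% at the 4 times, and 27 of them were under 10% at 0 h. In that set 27 of 28 immediate early genes fell faster than the library, 136 of 166 ZNF genes did, and 25 of 34 ribosomal protein genes fell more slowly.

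The 8 genes whose own share rose from 0 to 6 h included QPRT, an enzyme of NAD synthesis, at 55.7%, 58% and 52.2% at 0 h and 63.0%, 64.2% and 62.3% at 6 h (log2 odds change 0.47 ± 0.20 (SE), edgeR adjusted p = 0.0203). The groups did not overlap. C16orf58 went from 69.7%, 71.2% and 68.7% to 78.6%, 74.1% and 78.6% (edgeR adjusted p = 0.0194), and JMJD8 from a mean of 34.7% to 41.3%. C16orf58 overlaps SLC5A2 over 40.7% of its exon bases, JMJD8 overlaps STUB1 over 37.4%, and QPRT has no such neighbour. Without overlapping entries 2 genes were called higher.

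Unlabelled reads would hold mRNA made after the pulse, but 25.2% of reads were already unlabelled at 0 h, before any chase. How many of those at 6 h were newly made was not tested. Unlabelled reads went with the totals in several ways from 0 to 6 h. In 1445 genes all reads and unlabelled reads rose while labelled reads fell. In 1181 genes all reads and unlabelled reads rose and labelled reads were not called. In 894 genes unlabelled reads rose but all reads fell, and in 1319 they rose with no call on the total. In 505 genes labelled reads rose too. Labelled reads were higher at 6 h than at 0 h in 506 genes in all (6.69%) and lower in 5580 (73.8%). In 733 genes all reads, unlabelled and labelled reads fell, and in 1016 the first and last fell with no call on unlabelled reads. Over all 7558 genes, unlabelled reads were higher at 6 h in 5399 and lower in 825 (10.9%), with a median log2 change of 2.55. By step, 3121 genes gained unlabelled reads from 0 to 2 h (41.3%), 4833 from 2 to 4 h (63.9%) and 3007 from 4 to 6 h (39.8%). The genes that lost them numbered 655 (8.67%), 163 (2.16%) and 329 (4.35%) at these steps.

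Among genes with a mean of at least 50 unlabelled reads, the falls were largest for RSPH9, C17orf89, TMEM256, MTIF3 and TMEM14C. Unlabelled reads of RSPH9, a protein of the ciliary radial spoke, went from 259 to 55.8 CPM, and its share was 0.2825% at 0 h and 0 at 6 h. It overlaps MRPS18A on the other strand over 23.0% of its exon bases. C17orf89, with no such overlap, went from 88.2 to 22.8 unlabelled CPM at shares of 13.8% and 14.6%. ACTB, cytoplasmic actin and chosen after its values were seen, was at 79.9% labelled at 0 h and 53.2% at 6 h as means, while all reads went from 3564 to 1853 CPM and unlabelled reads from 716 to 867 CPM. TUBA1B, an α-tubulin with near-identical relatives, went from 10788 to 5657 CPM and from 88.1% to 52.9% labelled.

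The total moved with the starting share. Of 1185 genes above 95% labelled at 0 h, all reads rose from 0 to 6 h in 905 and fell in 94, with a median log2 change of 1.51. Of 852 genes at 50% to 70%, 104 rose and 579 fell, with a median of -0.84. Across 7321 genes Spearman's rho between the 0 h share and the log2 change of all reads was 0.495. This is a description across genes that share the same libraries, and since both use the 0 h reads, no test was made of it.

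Labelled reads of 1026 genes rose from 0 to 2 h (13.6%), and those of 912 fell (12.1%). All reads rose over these 2 h in 1806 genes (23.9%) and fell in 1118 (14.8%). Of the 1026, 757 had more reads in all and a lower share. SLC38A2, an amino acid transporter induced by starvation, had labelled reads of 251, 239 and 236 CPM at 0 h, 889, 985 and 870 after 2 h, 684, 584 and 582 after 4 h and 342, 345 and 309 at 6 h. The 2 h libraries lay above all others, a log2 change of 1.92 ± 0.11 (SE, edgeR adjusted p = 4.6e-31). Its share was 97.2%, 99.2% and 96.0% at 0 h, 62.6%, 67.4% and 60.7% after 2 h and 17.6%, 17.0% and 16.5% at 6 h, and its total went from 248 to 1947 CPM.

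CEBPG, a partner of ATF4, went from 855 to 1401 labelled CPM in the first 2 h and stood at 826 CPM at 6 h, as its total grew from 891 to 3697 CPM. DDX21, an RNA helicase of ribosome biogenesis, had 277 labelled CPM at 0 h, 453 after 2 h, 479 after 4 h and 371 at 6 h. ZBTB6 went from 9.60, 17.6 and 8.65 labelled CPM at 0 h to 161, 136 and 163 at 2 h (log2 change 3.65 ± 0.21 (SE), edgeR adjusted p = 5.76e-32) and to 42.5, 34.4 and 36.8 at 6 h. CPM are relative to all mRNA of a library, and how much label still entered new transcripts after the medium change was not tested.

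**Figure D3:**
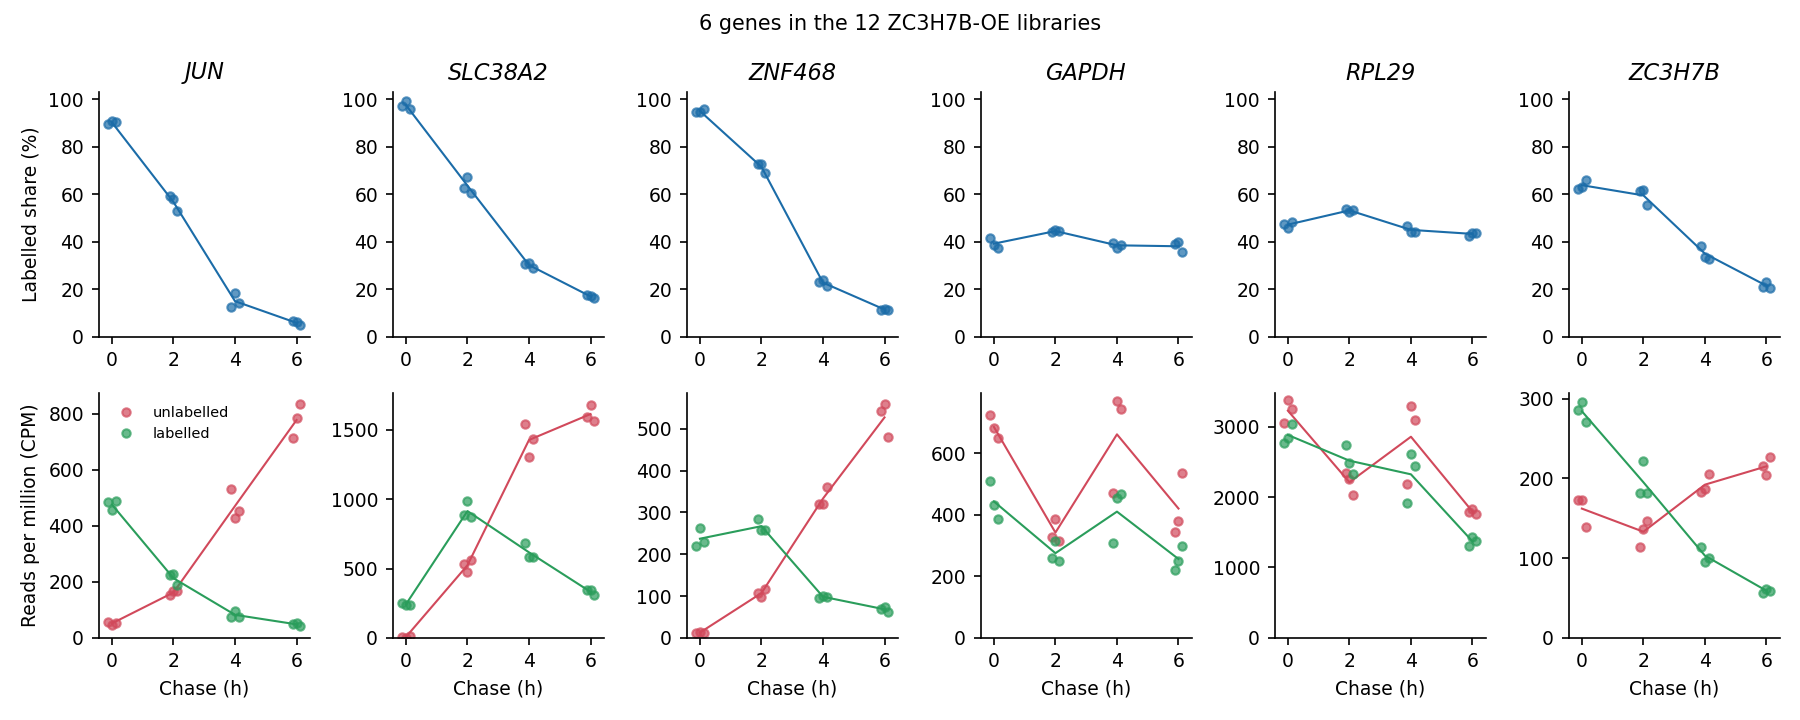
Labelled share (top, percent) and labelled and unlabelled reads (bottom, CPM) of JUN, SLC38A2, ZNF468, GAPDH, RPL29 and ZC3H7B by chase time (hours) in each ZC3H7B-OE library. JUN falls from about 90.2% to 5.88% labelled while GAPDH stays between 35.6% and 45%. Labelled SLC38A2 reads are highest at 2 h.

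The base composition of the 3′ UTR went along with the share. Of 7321 tested entries that name 1 gene, 7142 matched a GENCODE 29 UTR by gene identifier. They were divided into 4 equal groups by the T content of the 3′ UTR, with bounds at 25.35%, 30.1% and 33.94%. From the T-poorest to the T-richest group the median share at 0 h was 77.1%, 87.7%, 90.6% and 91.1%, and at 6 h 42.2%, 29.1%, 22.8% and 22.6%. The percent of genes that fell faster than the library was 20.7%, 51.8%, 68.4% and 69.7%. The median log2 change of all reads from 0 to 6 h was -0.82, -0.27, 0.79 and 1.78, and that of unlabelled reads 0.27, 2.14, 3.73 and 4.93. Apparent half-lives showed no such order, with medians of 3.78, 3.56, 3.94 and 4.06 h. Spearman's rho of T content was 0.372 with the 0 h share, -0.461 with the relative change and 0.616 with the change of all reads, across genes of the same libraries.

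The 684 genes with the nonamer in the 3′ UTR had a median share of 22.9% at 6 h, against 26.7% in those without, and 70% of them fell faster than the library, against 50.8%. Since the nonamer is itself rich in T, the 4 groups were compared separately. The percent that fell faster was 26.0% with and 20.5% without the nonamer in the T-poorest group, then 66.4% and 50.5%, 81.0% and 66.5%, and 75.9% and 68.8% in the T-richest. The genes with the nonamer also had longer 3′ UTRs at the median in each T group. From the T-poorest on, the medians were 1984, 3462, 3738 and 2670 bases, against 793, 1301, 1653 and 1382 without it. From the shortest to the longest of 4 groups by UTR length, 27.6%, 49.3%, 62.3% and 71.4% of genes fell faster than the library. The part of UTR length in the differences by nonamer was not tested, and no test was made of the differences themselves.

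**Figure D4:**
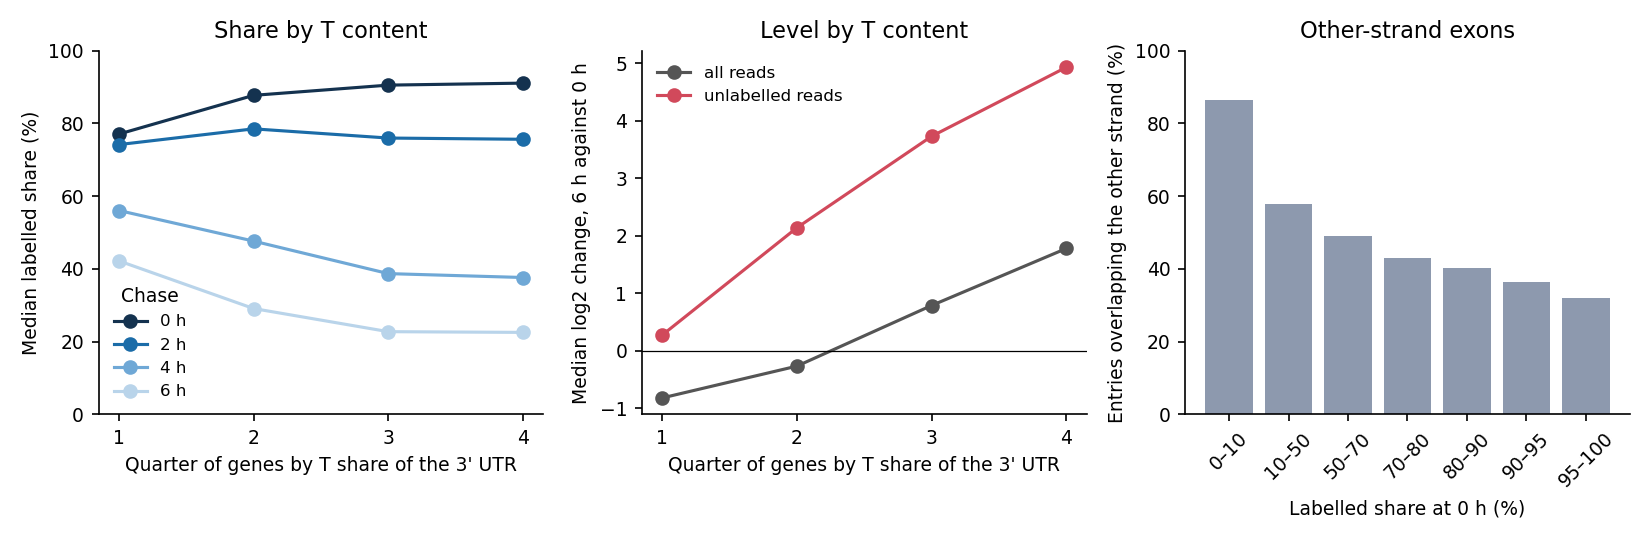
Share and read changes by 3′ UTR T content. The left panel gives the median labelled share (percent) by chase time (hours) in 4 groups of T content, the middle panel the median log2 change from 0 to 6 h of all and of unlabelled reads, and the right panel the percent of entries that overlap an exon on the other strand by 0 h share. The T-richest group ends at 22.6% and the T-poorest at 42.2%, and overlap is 86.5% in the lowest share bin.

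The course of the share was compared with the control line in one fit over 24 libraries and 7583 genes. The contrast is the change from 0 to 6 h in ZC3H7B-OE minus that in control, in log2 odds. It was higher, meaning a smaller loss of label in ZC3H7B-OE, for 175 genes (2.31%) and lower for 29 (0.382%) by edgeR's quasi-likelihood test. With limma on log2 odds 43 were higher and 8 lower. Without ZC3H7B-OE 6 h replicate 3 the count of 175 was 112, without control 6 h replicate 2 it was 116, and without ZC3H7B-OE 0 h replicate 1 the count of 29 was 18. Control 0 h replicate 3 stood apart from replicates 1 and 2. Its correlation within the group was 0.9, against 0.939 and 0.937. It had reads on 11032 genes, against 12139 and 12227, and its 10 most abundant genes took 10.72%, against 7.204% and 7.209%. Without it 159 genes were higher and 23 lower. For the first 2 h the counts were 2 higher (0.0264%) and 11 lower (0.145%). At 6 h itself the share was higher in ZC3H7B-OE for 364 genes (4.8%) and lower for 284 (3.75%). Effects of ZC3H7B and other differences between the lines cannot be told apart here.

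For 9 of the 10 genes named for the largest difference, all but RBM26, the 0 h libraries of the lines did not overlap. None of the 10 was called different between the lines at 6 h. TRIM13, a ubiquitin ligase, was labelled at 55.6%, 65.2% and 40.0% at 0 h in ZC3H7B-OE against 89.3%, 91.7% and 90.6% in control. At 6 h it was at 14.5%, 18.0% and 15.4% against 16.7%, 18.5% and 16.0%. The log2 odds ratio of the courses was 2.95 ± 0.53 (SE, edgeR adjusted p = 0.000222). It was the only one of the 10 to keep its call when any 1 of the 24 libraries was left out. JAK1, PPP6C, WASL, ENPP4 and RBM26 lost their calls without control 0 h replicate 3. TRIM13 overlaps the noncoding DLEU2 over 4.28% of its exon bases.

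The other genes with a smaller loss of label in ZC3H7B-OE were MAPK6, an atypical MAP kinase (6.08, edgeR adjusted p = 0.0208), RP2, JAK1, a cytokine receptor kinase, and PPP6C, a phosphatase subunit. MAPK6 was at 92.2%, 79.2% and 98.2% in ZC3H7B-OE and at 100% in the 3 control libraries at 0 h, so that its size rests on few unlabelled reads. RP2 was at 90%, 66.7% and 78.6% against 97.3%, 97.5% and 98.5%. Those with a larger loss were WASL, ENPP4, RBM26, RBM12B and UBE4A. UBE4A, a ubiquitin ligase, was at 99.1%, 99.2% and 98.6% at 0 h in ZC3H7B-OE against 93.5%, 95.1% and 91.0% in control (log2 odds ratio -3.08 ± 0.79 (SE), edgeR adjusted p = 0.0187).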

How the data were processed

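The counts used came from 2 deposited tables, 1 of all reads and 1 of reads with T-to-C conversions. Each held whole-number counts per gene, with 1 column per library. Per the labels' protocols, poly(A) RNA was made into paired-end libraries with a directional kit. Per the submitters' processing notes, fastp and the genome build GRCh37 were used. For the aligner, the conversion caller, the number of conversions required and the use of strand, the record is: not given in the sources used here. No column of another sample was left unused (0 columns).

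Unlabelled counts are all minus labelled counts. Genes with a mean of at least 20 reads over the 12 libraries entered the fits, made in R 4.3.3 with edgeR 4.0.16 (robust quasi-likelihood, Benjamini-Hochberg adjusted p at most 0.05). Shares were fitted on labelled and unlabelled columns with the library as a block, without or with offsets from each library's labelled and unlabelled totals. Read levels used TMM factors of all reads over the 12 libraries (ZC3H7B levels of both lines: over 24). Limma 3.58.1 and DESeq2 1.42.0 served alternatives, with other filters, scalings, a replicate block and libraries left out. The fits were tested on simulated data. Entries naming several genes held 2.63% to 3.69% of a library's reads. UTRs and strand overlap came from GENCODE 29 (GRCh38), joined by gene identifier, so no coordinates are given; the nonamer was searched on the sense strand.

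Members and gene lists were chosen with earlier results of these data known. Genes were named by rule: ZC3H7B and ZC3H7A; the 12 largest relative falls and rises from 0 to 6 h and the 10 largest falls to 2 h (at least 100 reads); the 10 largest rises and 5 largest falls of unlabelled reads (at least 50); up to 4 per list by adjusted p; up to 5 each way for the difference between lines; and the 5 most abundant. Genes named beyond it, such as those with a printed UTR site, were chosen after their values were seen. Replicate numbers did not pair the libraries.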

Additional observations from a re-analysis of the deposited data

Results flagged for a closer look

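The course of the labelled share from 0 to 6 h differed between the lines, by the interaction test in edgeR, for 175 genes with a higher and 29 with a lower log2 odds ratio in ZC3H7B-OE minus control. Among called genes with a mean of at least 100 reads, the largest ratios were 6.08 for MAPK6, 3.29 for RP2, 3.18 for JAK1, 3.16 for PPP6C and 2.95 for TRIM13. This mean is over libraries and does not ensure many reads at 0 h. On the lower side they were -5.18 for WASL, -5.11 for ENPP4, -4.14 for RBM26, -3.20 for RBM12B and -3.08 for UBE4A. RBM26 was labelled at 82.9%, 100% and 50% in the control libraries at 0 h, so that its value rests on few reads of one library, and without that library the ratio was -3.21 with an edgeR adjusted p of 0.212. WASL without the same library gave -4.33 and 0.181.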

How the results depend on the processing

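No count or named gene result reversed. The median relative change of the exosome list turned from -0.027 to 0.0741 with TMM scaling. Without entries that overlap a gene on the other strand it was 0.00491. That of the decapping list was -1.27 over all members tested, -1.08 over those matched to GENCODE 29 and 0.275 without overlapping entries. For the cholesterol and fatty acid list these values were -0.125, 0.107 and 1.36. With limma in place of edgeR, the share rose from 0 to 2 h in 73 genes and from 0 to 6 h in 13, the share relative to the library rose to 2 h in 229, and the difference between lines from 0 to 6 h was called higher in 43 and lower in 8, and to 2 h in 9 and 17. With at least 50 reads, 3 genes rose from 2 to 4 h. With all 24 libraries in the fit, unlabelled reads fell from 4 to 6 h in 197 genes. With chase hours from 2 h only, labelled reads increased in 13. Leaving out 1 library at a time gave 5 to 10 genes with a higher share at 6 h than at 0 h, 1 to 9 from 4 to 6 h, 186 to 363 with fewer unlabelled reads from 4 to 6 h, and 105 to 257 with increasing labelled reads. For the difference between lines the ranges were 112 to 215 higher and 18 to 41 lower from 0 to 6 h, and 0 to 3 and 2 to 55 to 2 h. The count of 175 became 112 without ZC3H7B-OE 6 h replicate 3 and 116 without control 6 h replicate 2, and the count of 29 became 18 and 19 without ZC3H7B-OE 0 h replicates 1 and 2 and 19 without control 6 h replicate 1. The cause was not tested. With the replicate number as a block, the line difference to 2 h was called in 1 and 7 genes and the share rose from 0 to 2 h in 132. The numbers did not pair the libraries: correlations of same-numbered deviations in share were -0.0359 to 0.0323, and 0 of 12 libraries correlated best with their own number. Of 185 results on named genes 11 lost their call under some alternative. Depth limits shares of genes near 100% or 0%.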
